A study of Mus musculus with 10 samples.

Results

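Transcripts of 10 genes that mark the gastric type of epithelium were followed in pieces of mouse pancreas. The genes were chosen by name: Muc5ac, Muc6, Tff1, Tff2, Gkn1, Gkn2, Gkn3, Cldn18, Anxa10 and Ctse. All 10 were found among the 24421 gene rows of the deposited count table, and all 10 were among the 13688 genes with enough counts to be tested. The tissue was the tail of the pancreas of female mice aged 12 weeks, with 1 RNA-seq library per mouse and 10 libraries in all. Every group carried Ptf1aCreER, a Cre recombinase that is switched on by an inducer in cells expressing Ptf1a, a gene of the enzyme-secreting acinar cells, and nTnG, a reporter of Cre activity that marks nuclei. Between groups the alleles of Insr, the insulin receptor gene, differed: the 3 libraries labelled Insr WT had 0 floxed alleles (Insrw/w), the 3 labelled Insr Het had 1 (Insrw/f) and the 4 labelled Insr KO had 2 (Insrf/f). A floxed allele can be cut out by Cre, here only in cells in which Cre was active, so other cells of the piece keep their receptor. Libraries are named by genotype label and mouse number, as in WT-1860. The series addresses what part acinar insulin receptors have in enzyme production, inflammation and the start of pancreatic cancer under high insulin.

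As background, the surface of the stomach is covered by mucous pit cells, which secrete the gel-forming mucin Muc5ac, the small trefoil peptide Tff1 and the gastrokines Gkn1 and Gkn2. Mucous cells deeper in the glands secrete the mucin Muc6 and the trefoil peptide Tff2. Acinar cells of an injured pancreas can take on duct-like states, and early precursor lesions of the pancreas are known to express genes of this gastric programme, a change of cell type called metaplasia. No histology was analysed here, and in whole tissue fewer cells of a type and less RNA per cell cannot be told apart.

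Levels are given as CPM, counts scaled to library sizes that TMM, a method that sets the scale from genes differing little between libraries, has adjusted. A mean is given with its SD, over n = 4 KO, 3 Het and 3 WT libraries. Total gene counts ranged from 11718559 to 19024351 per library. With the TMM factors applied to these totals, 1 count was worth 0.0167 CPM in WT-2404 and up to 0.132 CPM, in KO-2070. In WT-2404 digestive enzyme genes held only 15.7% of gene counts, against 58.3% to 77.3% in the other 9 libraries, so WT-2404 stood apart before any comparison, with a TMM factor of 3.53 against 0.596 to 1.56. The transcript of the floxed gene itself did not separate the labels: Insr was at 31.5 ± 5.95 CPM over KO, 38.5 ± 8.92 over Het and 29.8 ± 9.88 over WT mice, with a KO against WT log2 fold change of 0.09 (SE 0.26, edgeR adjusted p = 0.864). Gene-level counts cannot show the loss of single exons in some of the cells, so the labels were taken as given. No label gives a batch, litter or date. Each p-value sets a group difference against a spread between mice that is estimated over all libraries of the fit.

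The members lie in 3 gene clusters and at 3 single loci of the mouse genome (GRCm38, the build mm10 of the submitters' processing notes; positions from GENCODE M21). The gastrokine genes sit side by side on chromosome 6, with Gkn1 at 87345650 to 87350942 on the minus strand, Gkn2 at 87373357 to 87379497 on the plus strand and Gkn3 at 87383256 to 87388935 on the minus strand. Between Gkn2 and Gkn3 lie 3.76 kb, and between Gkn1 and Gkn2 22.4 kb, with 0 other protein-coding genes in either gap. The trefoil genes Tff2 (31141049 to 31144282) and Tff1 (31161395 to 31165277) are neighbours on the minus strand of chromosome 17, 17.1 kb apart, with Tff3 on the other side of Tff2. Muc6 (141633456 to 141655319, minus strand) and Muc5ac (141788972 to 141819231, plus strand) are 134 kb apart on chromosome 7, with the intestinal mucin gene Muc2 between them. Ctse lies on chromosome 1 (131638306 to 131675505), Anxa10 on chromosome 8 (62057042 to 62123150) and Cldn18 on chromosome 9 (99689461 to 99717267).

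Promoter windows, 250 bases before to 50 after the transcription start, were listed in RefSeq (GRCm38.p6) for 6 of the 10 members: Gkn1, Gkn2, Gkn3, Muc6, Anxa10 and Cldn18, the last with 2 windows. Those of the 3 gastrokines and of Muc6 are printed because the gastrokines are neighbours of which Gkn1 and Gkn2, but not Gkn3, kept their proportions between libraries, with the gland mucin Muc6 set beside them. The windows are chr6:87350866-87351165 (minus strand) for Gkn1, chr6:87373115-87373414 (plus strand) for Gkn2, chr6:87388886-87389185 (minus strand) for Gkn3 and chr7:141655344-141655643 (minus strand) for Muc6. Capitals mark GATAA, the core bound by GATA factors, or its reverse complement TTATC.
Gkn1: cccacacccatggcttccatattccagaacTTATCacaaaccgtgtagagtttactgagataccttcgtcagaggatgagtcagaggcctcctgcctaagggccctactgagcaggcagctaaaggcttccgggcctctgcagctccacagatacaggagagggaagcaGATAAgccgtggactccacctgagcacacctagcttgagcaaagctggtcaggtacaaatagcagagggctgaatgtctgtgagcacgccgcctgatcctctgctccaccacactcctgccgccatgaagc
Gkn2: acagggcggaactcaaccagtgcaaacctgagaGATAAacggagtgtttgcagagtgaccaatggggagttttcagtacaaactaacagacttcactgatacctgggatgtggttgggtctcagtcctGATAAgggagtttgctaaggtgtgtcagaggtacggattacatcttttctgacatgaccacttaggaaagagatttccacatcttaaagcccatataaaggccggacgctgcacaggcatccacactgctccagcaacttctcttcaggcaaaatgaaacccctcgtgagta
Gkn3: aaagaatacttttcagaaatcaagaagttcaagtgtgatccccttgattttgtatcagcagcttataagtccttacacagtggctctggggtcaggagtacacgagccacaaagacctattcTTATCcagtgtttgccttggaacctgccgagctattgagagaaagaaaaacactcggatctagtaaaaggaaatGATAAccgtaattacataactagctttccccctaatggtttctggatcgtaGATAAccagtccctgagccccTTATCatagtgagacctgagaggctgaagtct
Muc6: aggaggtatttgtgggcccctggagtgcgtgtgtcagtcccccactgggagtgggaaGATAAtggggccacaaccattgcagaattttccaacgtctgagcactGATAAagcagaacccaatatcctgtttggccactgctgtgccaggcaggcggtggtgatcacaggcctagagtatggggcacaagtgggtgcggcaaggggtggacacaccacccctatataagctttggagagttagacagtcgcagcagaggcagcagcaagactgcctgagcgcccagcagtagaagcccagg
GATAA was found on either strand in 5 of the 7 windows of members, against 25.4% of all 32851 windows of this length. The printed windows hold 2 matches (Gkn1), 2 (Gkn2), 4 (Gkn3) and 2 (Muc6), and 2 or more matches occur in 5.27% of all windows. The upstream Cldn18 window also held 2, while the other Cldn18 window and that of Anxa10 held 0. TATAAA was found in 2 of the 7 windows (Gkn2 and Anxa10; 13.6% of all windows) and TGANTCA, the site of AP-1 factors, in 2 (Gkn1 and Anxa10; 7.81%). The motifs were chosen after the sequences had been seen, and a match is a description of the letters only.

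The 9 members other than Tff2 shared their lowest library and, but for Gkn3, their highest, though not the order of the libraries between. They differed by a wide margin between mice of the same label. Summed over these 9 genes, WT libraries held 451 CPM (WT-2404), 1895 CPM (WT-1860) and 451 CPM (WT-2067). The Het libraries held 192 CPM (Het-2066), 561 CPM (Het-1770) and 1294 CPM (Het-2042). The KO libraries held 437 CPM (KO-2079), 6.06 CPM (KO-2070), 432 CPM (KO-2124) and 128 CPM (KO-2126). Thus the highest and the lowest Het library differed 6.73-fold, and the 3 groups overlapped. KO-2070 was the lowest library for 9 of the 9 genes and had only 46 counts for all of them together, of 12028969 gene counts, against 1266 to 34668 in the other 9 libraries. The 4 genes Muc5ac, Tff1, Gkn2 and Anxa10 had 0 counts there, which allows a level of up to 0.395 CPM each (3 counts, counting error only). WT-1860 was the highest library for 8 of the 9 genes, and WT-2404 for Gkn3. For Muc6 and Ctse WT-2404 came directly after WT-1860, but for Gkn1 and Gkn2 it stood above only KO-2070. The sums do not show such differences between genes.

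**Figure D1:**
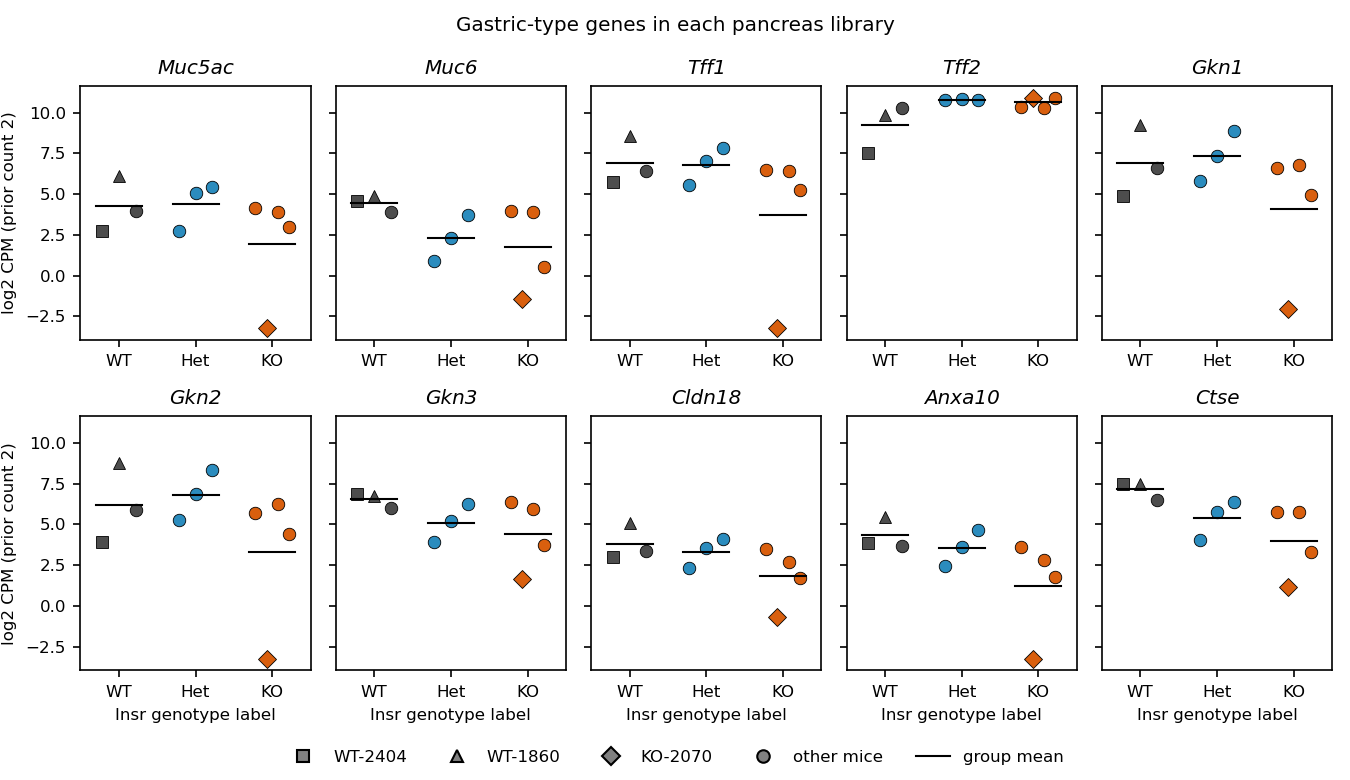
Log2 CPM (prior count 2) of each of the 10 genes in every library, by genotype label, with 1 point per mouse and a line at the group mean (n = 3 WT, 3 Het and 4 KO). The diamond, KO-2070, lies below all other points in every panel but Tff2, where it is among the highest and WT-2404 (square) is lowest.

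Among the pit-cell products, Gkn1, a secreted gastrokine, stood at 29.9, 605 and 96.8 CPM in WT-2404, WT-1860 and WT-2067. It stood at 56.5, 159 and 477 CPM in Het-2066, Het-1770 and Het-2042. In KO-2079, KO-2070, KO-2124 and KO-2126 it was at 99.1, 0.132, 111 and 30.8 CPM, the second of these being 1 count. The ranges of the groups overlapped. The means were 60.2 ± 53.4 CPM over KO, 231 ± 219 over Het and 244 ± 315 over WT mice, so the SD was of the size of the mean. KO against WT gave a log2 fold change of -2.01 (SE 1.31, 95% interval -4.92 to 0.90, edgeR adjusted p = 0.366). Without WT-1860 the same value was -0.067, so that library set most of its size. Het against WT gave -0.078 (SE 1.40, edgeR adjusted p = 0.980), with an interval from -3.17 to 3.01, which leaves room for large differences in either direction.

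Gkn2, the partner gastrokine, had the same order of extremes, from 0 CPM in KO-2070 to 441 CPM in WT-1860, with means of 37.5 ± 33.7 CPM over KO, 161 ± 149 over Het and 172 ± 234 over WT mice. Its KO against WT log2 fold change of -2.19 (SE 1.34, edgeR adjusted p = 0.332) was 0.014 without WT-1860. Tff1, the trefoil peptide of pit cells, ranged from 0 (KO-2070) to 382 CPM (WT-1860), with means of 53.1 ± 42.4 CPM over KO, 137 ± 92.3 over Het and 174 ± 181 over WT mice. Tff1 differed by -1.70 in KO against WT (SE 1.16, edgeR adjusted p = 0.384), and by -0.39 without WT-1860.

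Muc5ac, the mucin of the pit cells, was at 6.68, 69.3 and 15.7 CPM in WT-2404, WT-1860 and WT-2067. It was at 6.66, 33.2 and 43.3 CPM in Het-2066, Het-1770 and Het-2042, and at 17.5, 0, 14.9 and 7.78 CPM in KO-2079, KO-2070, KO-2124 and KO-2126. The groups overlapped, and the lowest WT and the lowest Het library were nearly level. KO against WT gave -1.56 (SE 1.01, 95% interval -3.78 to 0.67, edgeR adjusted p = 0.360). That value was -0.097 without WT-1860 and -2.0 without WT-2404.

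Of the products of deeper mucous cells, Muc6 was at 24.1, 30.0 and 15.1 CPM in WT-2404, WT-1860 and WT-2067, and at 1.75, 4.94 and 12.9 CPM in Het-2066, Het-1770 and Het-2042. The KO libraries stood at 15.8, 0.263, 15.1 and 1.31 CPM in the order KO-2079, KO-2070, KO-2124 and KO-2126. All 3 Het libraries lay below all 3 WT libraries, while KO-2079 lay above the lowest WT library. Het against WT gave -1.79 (SE 1.0, edgeR adjusted p = 0.322) and KO against WT -1.44 (SE 0.89, edgeR adjusted p = 0.340), and neither passed the threshold of 0.05. Gkn3, the gastrokine nearest to Gkn2 in the genome, had means of 40.6 ± 38.9 CPM over KO, 42.6 ± 31.1 over Het and 97.4 ± 28.7 over WT mice. Its KO against WT value of -1.25 (SE 0.85, edgeR adjusted p = 0.384) was -1.17 without WT-1860 and -1.05 without WT-2404. The Muc6 value for KO against WT was -1.22 without WT-1860 and -1.37 without WT-2404, so neither gene came near 0 on leaving out one of these, unlike Gkn1 and Gkn2.

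Tff2, the trefoil peptide that the stomach secretes with Muc6, did not follow the other members. It was at 188, 917 and 1272 CPM in WT-2404, WT-1860 and WT-2067, at 1758, 1862 and 1741 CPM in Het-2066, Het-1770 and Het-2042, and at 1325, 1952, 1269 and 1958 CPM in KO-2079, KO-2070, KO-2124 and KO-2126. Its lowest library was WT-2404, and KO-2070, nearly empty of the other members, had its second highest level, from 14821 counts. The means were 1626 ± 380.5 CPM over KO, 1787 ± 65.8 over Het and 792 ± 553 over WT mice. All 3 Het libraries lay above all 3 WT libraries, and KO-2124 lay just below WT-2067. KO against WT gave 1.04 (SE 0.53, edgeR adjusted p = 0.251) and Het against WT 1.17 (SE 0.56, edgeR adjusted p = 0.262). The mean of the Het and KO groups against WT, called floxed against WT, gave 1.11 (SE 0.50, edgeR adjusted p = 0.168, DESeq2 adjusted p = 0.0570). The last value was 0.64 without WT-2404 (edgeR adjusted p = 0.447), 1.63 without WT-2067 (edgeR adjusted p = 0.0508) and 0.34 by library size alone. KO against WT gave 0.56 without WT-2404 and 1.56 without WT-2067 (edgeR adjusted p = 0.0779).

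Relative to enzyme counts and to all gene counts, Tff2 varied less than its CPM. Relative to Tff1 it varied more, from 2.40 to 51.7 Tff2 counts per Tff1 count, a 21.5-fold range over 9 libraries without KO-2070. Tff2 held 1.51 to 2.77 counts per 1000 counts of the 31 acinar enzyme genes in 9 libraries and 4.23 in WT-2404, a 2.80-fold range, a ratio that needs no scaling between libraries. In WT-2404, the library with the fewest enzyme counts, its CPM was lowest too. As a share of all gene counts Tff2 took 0.0665% in WT-2404, 0.112% and 0.143% in the other two WT libraries, 0.119% to 0.149% in Het and 0.117% to 0.172% in KO libraries, a 2.59-fold range. Of the counts of all 10 members, Tff2 made up 99.7% in KO-2070, against 29.4% to 93.9% elsewhere. Across the 10 libraries, the log2 CPM of pairs of the other 9 genes had Pearson r from 0.75 to 1.0 (36 pairs). For the 9 pairs with Tff2, r was -0.59 to -0.050. All libraries share the TMM scale, and without KO-2070 and WT-1860, the libraries farthest from the median, the 36 values ran from 0.21 to 0.99 and the 9 with Tff2 from -0.65 to 0.53. Over these 8 libraries Tff2 had an r above 0 with Gkn2 (0.53), Gkn1 (0.46), Muc5ac (0.43) and Tff1 (0.25), so its negative r with the pit-cell genes did not hold there. Spearman's rho over the 10 libraries was 0.39 to 0.99 for the 36 pairs and -0.92 to -0.30 for those with Tff2.

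Ctse encodes cathepsin E, an intracellular aspartic protease abundant in gastric mucous cells. It was at 179, 183 and 90.6 CPM in WT-2404, WT-1860 and WT-2067, at 16.7, 53.8 and 83.7 CPM in Het-2066, Het-1770 and Het-2042, and at 53.9, 2.11, 54.8 and 9.70 CPM in KO-2079, KO-2070, KO-2124 and KO-2126. All 7 libraries with a floxed allele lay below all 3 WT libraries, with the smallest gap between Het-2042 and WT-2067. Ctse was the only member whose WT range was apart from both other groups. The means were 30.1 ± 28.2 CPM over KO, 51.4 ± 33.6 over Het and 151 ± 52.2 over WT mice. KO against WT gave -2.31 (SE 0.87, 95% interval -4.23 to -0.39, edgeR adjusted p = 0.157) and Het against WT -1.55 (SE 0.94, edgeR adjusted p = 0.354). Floxed against WT, with the mean of the Het and KO groups, gave -1.93 (SE 0.74, edgeR adjusted p = 0.127). Leaving out any 1 library kept the last value between -2.20 and -1.72, with edgeR adjusted p from 0.100 (without KO-2124) to 0.495 (without WT-2404).

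Anxa10, a gene of gastric epithelium, encodes one of the annexins, a family of membrane-associated proteins. It was at 5.53 ± 5.10 CPM over KO, 14.3 ± 10.3 over Het and 23.7 ± 17.6 over WT mice, and the highest KO library, KO-2079 at 11.9 CPM, was just under the lowest WT library, WT-2067 at 12.6 CPM. KO against WT gave -2.02 (SE 0.84, edgeR adjusted p = 0.186), which was -1.23 without WT-1860. Cldn18, a claudin of tight junctions with separate first exons in stomach and lung, which gene counts do not distinguish, was at 5.34 ± 4.60 CPM over KO, 11.3 ± 6.34 over Het and 17.2 ± 14.2 over WT mice. Its KO against WT value was -1.62 (SE 0.74, edgeR adjusted p = 0.217), and -0.70 without WT-1860.

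In KO against WT, the comparison for 2 floxed alleles, no member passed an edgeR adjusted p of 0.05 (0 of 10; 0% of all 13688 genes tested), and DESeq2 called 0 members while calling 7.37% of all genes. An unadjusted edgeR p under 0.05 was found for 2 members (23.5% of all genes), Ctse and Anxa10, both lower in KO (13.9% lower and 9.6% higher among all genes). The same 2 were the members whose groups did not overlap, against 9.17% of all genes with separate ranges lower in KO and 6.74% higher. That count was 5, all lower in KO, without KO-2079 (12.6% of all genes lower), 4 lower and 1 higher without WT-2067 (21.8% lower, 18.3% higher), 2 lower and 1 higher without KO-2124 (15.4% lower, 14.5% higher), and 2 lower without any other library. Of the 10 members 9 had a log2 fold change below 0, with a median of -1.66, against 48.2% and a median of 0.025 over all genes tested. This count is a description, since 9 of the genes were correlated with each other over the 10 libraries. Without WT-1860 the median was -0.55 and 8 members were below 0, and without WT-2404 the median was -2.05. Without WT-2404, which stood apart, the single values were -2.0 for Muc5ac, -1.37 for Muc6, -2.10 for Tff1, 0.56 for Tff2, -2.50 for Gkn1, -2.69 for Gkn2, -1.05 for Gkn3, -1.93 for Cldn18, -2.25 for Anxa10 and -2.13 for Ctse, and 0 members had an unadjusted p under 0.05 (5.29% of all genes were lower at that level). There were 0 such members without WT-1860 (11.4% lower) or KO-2126 (10.4% lower) too, 3 without KO-2079 or Het-2066 (13.2% lower in each), 1 without KO-2124 (16.4% lower), and 1 lower and 1 higher without WT-2067 (16.8% lower, 15.6% higher).

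In Het against WT, the comparison for 1 floxed allele, 0 of 10 members passed in edgeR, as did 0% of all genes, and 0 had an unadjusted p under 0.05, against 19.8% of all genes (11.6% lower, 8.26% higher). At that level 2 members were lower without KO-2070 (11.9% of all genes lower), 1 was lower without Het-2042 (10.4% lower) and 1 higher without WT-2067 (14.7% higher). By DESeq2 0 members and 2.92% of all genes passed. The members' median was -0.46 with 9 of 10 below 0, against 0.0047 and 49.7% over all genes tested, and it turned to 0.65 without WT-1860, when 3 of 10 members were below 0, and was -0.074 without Het-2066, when 5 were. Ranges did not overlap for 3 members, Muc6 and Ctse lower (13.5% of all genes) and Tff2 higher (11.3% of all genes). Without Het-2042 there were 5, 4 of them lower (20.5% of all genes lower, 19.2% higher). KO against Het, where 2 floxed alleles are set against 1, gave 0 of 10 members and 0% of all genes in edgeR, and the same in DESeq2. At an unadjusted p under 0.05 there were 0 members (0.752% of all genes, 0.351% lower and 0.402% higher), and 0 members had separate ranges (1.16% of all genes lower, 1.3% higher). The median was -1.17 with 9 of 10 below 0, against 0.0077 and 48.6% of all genes. Without Het-2066, the Het library lowest in most members, 6 members had separate ranges, all lower in KO (4.53% of all genes lower and 4.52% higher in that setting), and without Het-2042 the median was -0.58. Gkn1 and Gkn2 had the lowest values, -1.93 (SE 1.31) and -2.09 (SE 1.33), each with an edgeR adjusted p of 1.0, and Muc6 the highest, 0.35 (SE 0.94). The WT and Het libraries each serve in more than 1 comparison, so these results are not independent.

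**Figure D2:**
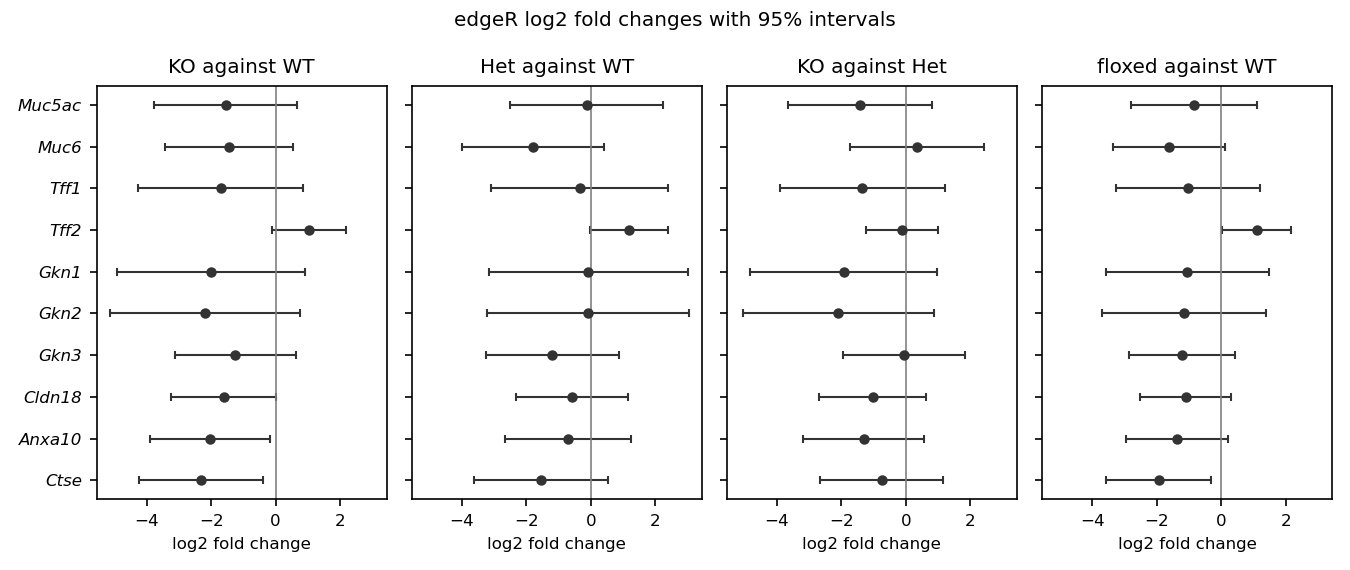
Log2 fold change of each gene (points) with its 95% interval (bars) in the 4 edgeR contrasts. The Ctse interval for KO against WT, -4.23 to -0.39, lies below 0 before adjustment, and the intervals of Gkn1, Gkn2 and Tff1 span 0 in all 4 panels.

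With the mean of the Het and KO groups set against WT, 0 of 10 members passed in edgeR (0% of all genes) or DESeq2 (12.8% of all genes). At an unadjusted p under 0.05 in edgeR were 2 members (28.3% of all genes): Ctse was lower (16.5% of all genes) and Tff2 higher (11.7% of all genes). Only Ctse had separate ranges, lower in the 7 floxed libraries (5.84% of all genes lower, 3.99% higher). Without WT-2404 or WT-1860, 0 members had an unadjusted p under 0.05 (6.33% and 13.1% of all genes lower). Leaving out KO-2079 gave 4, all lower (16.0% lower), and leaving out Het-2042 or KO-2070 gave 3, all lower (15.9% and 14.9%). Tff2 was higher at that level only without WT-2067 or KO-2124 (16.9% and 13.8% of all genes higher). In each of these settings 1 member was lower (19.1% and 18.2%). Leaving out any other library gave 1 lower member and 0 higher (13.9% to 15.4% of all genes lower). Without WT-2067, 3 members had separate lower ranges and 1 a higher one (18.2% and 14.9% of all genes). The lower ranges numbered 2 without Het-2042 (7.36%) or KO-2079 (7.15%), and without KO-2124 1 was lower and 1 higher (8.73% and 7.02%). Below 0 were 9 of 10 members (48.8% of all genes). The median of -1.12, against 0.016 over all genes, was 0.053 without WT-1860 and -1.48 without WT-2404. Muc5ac, Tff1, Gkn1 and Gkn2 changed sign without WT-1860, to 0.62, 0.29, 0.90 and 1.06, while Ctse, Muc6 and Gkn3 stood at -1.77, -1.39 and -1.14.

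**Figure D3:**
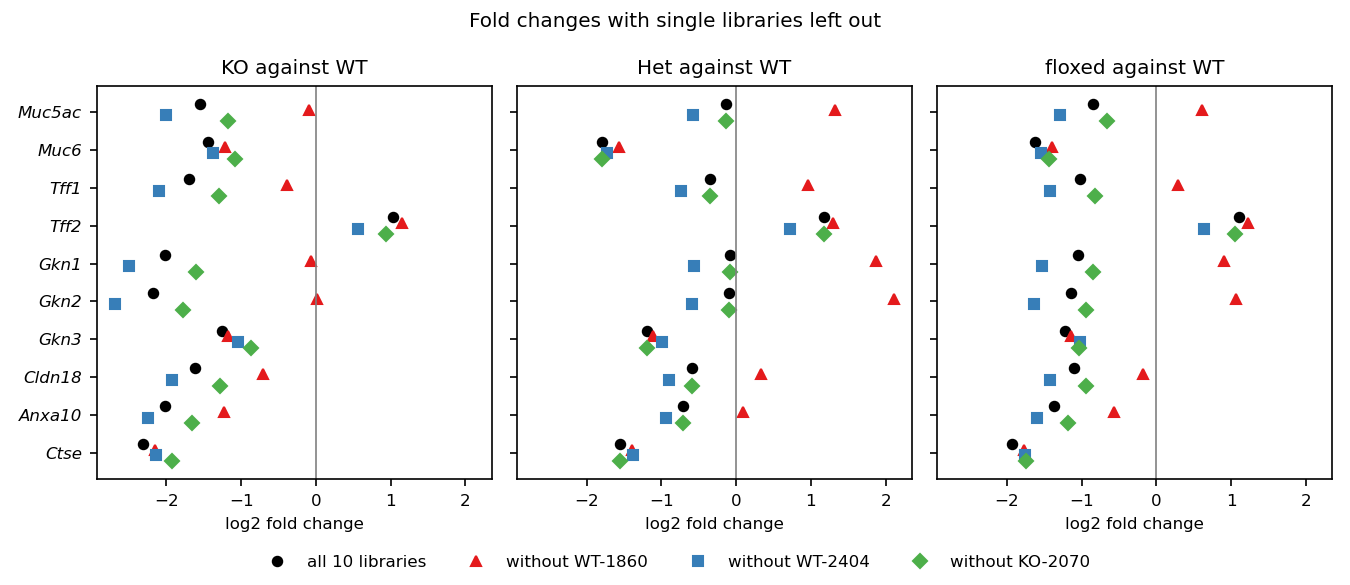
Log2 fold change of each gene in 3 contrasts, fitted with all 10 libraries and with WT-1860, WT-2404 or KO-2070 left out. For Muc5ac, Tff1, Gkn1 and Gkn2 the triangles (without WT-1860) lie to the right of all other points, and for Ctse and Gkn3 the 4 settings lie close together.

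Ratios between members within a library need no scaling, and they showed which genes kept their proportions. KO-2070 had too few counts (under 10 of at least 1 gene of each pair) and was left out, so 9 libraries remained. Gkn1 and Gkn2, both of pit cells, kept a ratio of 1.35 to 1.95, a 1.44-fold range, while Gkn1 itself ran from 29.9 to 605 CPM in these libraries. Cldn18 to Anxa10 ranged from 0.557 to 0.977 and Tff1 to Muc5ac from 3.97 to 8.03. By contrast Muc5ac to Muc6, the pit to the gland mucin, ranged 24.2-fold. There were 0.277, 2.31 and 1.04 Muc5ac counts per Muc6 count in WT-2404, WT-1860 and WT-2067, 3.8, 6.72 and 3.34 in Het-2066, Het-1770 and Het-2042, and 1.11, 0.988 and 5.92 in KO-2079, KO-2124 and KO-2126. All 3 Het libraries lay above all 3 WT libraries, and the KO libraries overlapped both. Gkn1 to Gkn3 ran from 0.251 in WT-2404 to 6.26 in Het-2042, and the 3 Het libraries (3.77 to 6.26) lay above the 3 KO libraries (1.18 to 2.36), with the WT libraries spread from 0.251 to 5.61. WT-2404 had the lowest ratios of Muc5ac to Muc6, of Gkn1 to Gkn3 and of Gkn1 to Ctse (0.167), and the highest ratio of Ctse to Anxa10, 12.4. The pairs were chosen after their values had been seen and carry no test.

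**Figure D4:**
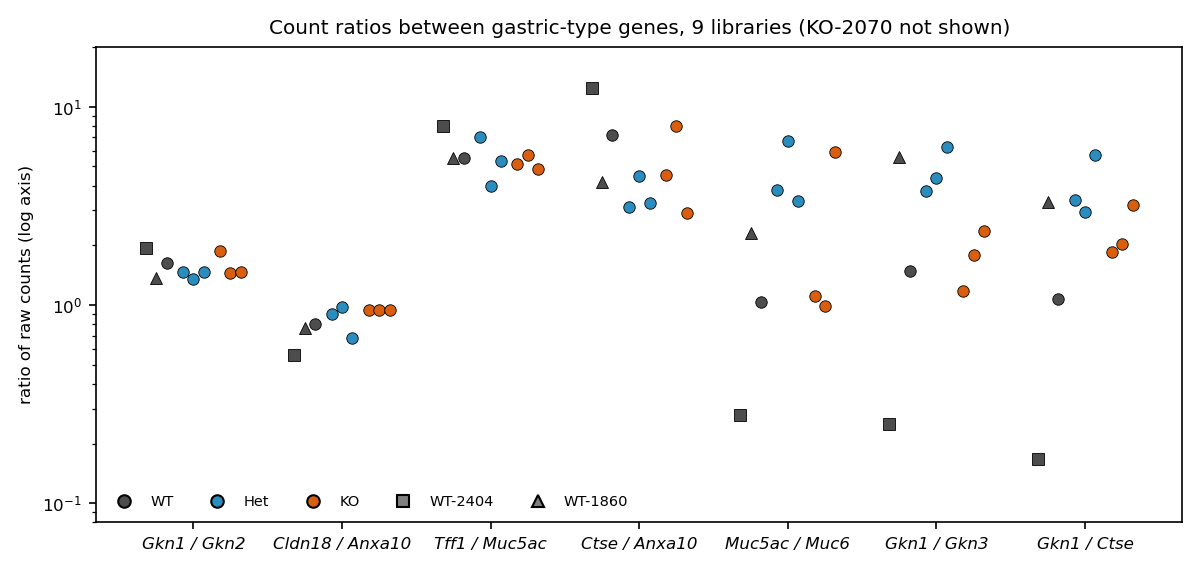
Ratios of raw counts between pairs of genes in each library (log axis), coloured by genotype label, for the 9 libraries other than KO-2070. Gkn1 to Gkn2 stays between 1.35 and 1.95, whereas Muc5ac to Muc6 runs from 0.277 (WT-2404, square) to 6.72.

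Levels can be compared between genes only per transcript length, here as CPM per kilobase of the exons of all its basic GENCODE transcripts merged. On that scale Tff2 was first of the 10 genes in each of the 10 libraries, with a median of 2625 CPM per kb. Tff1 (median 122), Gkn1 (78.4), Gkn3 (74.3), Gkn2 (71.4) and Ctse (25.6) followed, then Anxa10 (6.71) and Cldn18 (2.03), and the long mucin genes Muc6 (1.5) and Muc5ac (1.42) came last. The order of Tff1, Gkn1, Gkn2 and Gkn3 changed between libraries, and their ranges overlapped nearly throughout (0 to 543 for Tff1, 0.105 to 484 for Gkn1, 0 to 559 for Gkn2 and 3.54 to 139 for Gkn3). In WT-2404 Gkn3 and Ctse ranked directly after Tff2, above Tff1. Muc5ac and Muc6 carry long repeats in which reads can be hard to place, so their levels per length are uncertain.

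Other genes of the gastric and mucous programme were taken as a list of 30, all 30 in the table and 22 tested. In edgeR 0 of the 22 passed in any of the 4 contrasts, and in KO against WT 10 had an unadjusted p under 0.05, each lower in KO (13.9% of all genes). The median was -1.41, with 16 of 22 below 0, and 8 of 23 tested genes were lower at that level without WT-2404 (5.29% of all genes). For the floxed libraries against WT the lowest p-values belonged to Muc4, a membrane mucin, at -1.34 (SE 0.35, edgeR adjusted p = 0.0619), Aqp5, a water channel of secretory glands, at -1.79 (SE 0.47, adjusted p = 0.0621 by edgeR), Gata5, a GATA transcription factor, at -1.44 (SE 0.42, adjusted p = 0.0680 by edgeR) and Onecut2, a homeobox transcription factor, at -2.25 (SE 0.67, adjusted p = 0.0764 by edgeR). The genes named here were picked by their p-values. In that contrast 10 of the 22 were lower at an unadjusted edgeR p under 0.05 (16.5% of all genes). Without WT-2404, 5 of 23 were (6.33% of all genes). Aqp5 and Onecut2 were highest in WT-2404, at 11.1 and 45.7 CPM, and single values without it are not given. Onecut2 was at 6.69 ± 6.74 CPM over KO, 7.56 ± 5.10 over Het and 34.9 ± 12.2 over WT mice. Its WT range was apart from that of the other 7 libraries, as was that of Aqp5. Of the 22 tested genes, 5 had such separate ranges, lower in the 7 libraries (5.84% of all genes). Spdef, a factor of mucus-secreting cells, Gata4 and Dmbt1, a secreted scavenger protein, were on the other side, at 0.71, 0.62 and 0.35, with edgeR adjusted p-values of 0.251, 0.257 and 0.707. Muc1, a membrane mucin of many epithelia, averaged 172 ± 66.5 CPM over KO and 164 ± 62.1 over WT mice, a log2 difference of 0.069 (SE 0.38, edgeR adjusted p = 0.928). Tff3, the remaining trefoil gene and a neighbour of Tff2, had 0 to 14 counts per library and was not tested.

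The gastric label was checked against genes of other stomach and gut cells. Of 12 genes of acid-secreting, chief and endocrine stomach cells, Atp4b, a subunit of the acid pump, and Lipf had 0 counts in all 10 libraries. Under 10 counts everywhere were 6 of the 12. Others were counted: Atp4a, also of the acid pump, had 2 to 40 counts per library, Pga5 4 to 22, Cckbr 1 to 14, Ghrl 1 to 197 and Hdc 0 to 74. Their summed level, 27.4 to 46.2 CPM in WT, 34.3 to 49.8 in Het and 25.4 to 59.0 in KO libraries, came mostly from Kcnq1, a potassium channel found in many tissues. Pepsinogen C (Pgc) was counted in every library, at 1.32 to 48.8 CPM, and intrinsic factor (Gif) had 0 to 44 counts. Of 12 intestinal genes, Cdx2, the master regulator of intestinal identity, had 0 counts in all libraries, and 7 were under 10 counts everywhere. The summed level of the intestinal list was nonetheless highest in WT-1860 and Het-2042 and lowest in KO-2070, as for the members other than Tff2. It was 37.8 to 143 CPM in WT, 20.5 to 91.5 in Het and 5.79 to 43.6 in KO libraries. Most of the sum in WT-1860 and Het-2042 came from Clca1, a secreted protein of mucous cells. Clca1 held 111 of 143 CPM in WT-1860, 70.5 of 91.5 in Het-2042, 7.26 of 37.8 in WT-2404 and 0 of 5.79 in KO-2070. Taken without Clca1, the sum was still highest in WT-1860 and lowest in KO-2070, but WT-2404 then stood above Het-2042. All 5 tested genes of the list had a KO against WT log2 fold change below 0 (median -1.63), 2 of them with an unadjusted p under 0.05 (13.9% of all genes lower), and 0 passed in edgeR. The highest means in that list were those of Clca1 (32.6 CPM) and Vil1 (11.4 CPM), an actin-binding protein of brush borders. The members were thus counted in libraries with few counts of Atp4a and 0 counts of Atp4b and of Cdx2.

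Summed levels of markers of other cell types also differed between the libraries. The 12 ductal genes summed to 3078 to 6732 CPM in WT, 1212 to 2457 in Het and 1246 to 2432 in KO libraries. That sum came mostly from the gene Clu, with a mean of 1815 CPM over all libraries, against 240 for Spp1, the next highest. For KO against WT, 9 of the 12 ductal genes were lower at an unadjusted p under 0.05 (13.9% of all genes), 6 of 12 without WT-2404 (5.29%), while 0 passed in edgeR. Fibroblast genes summed to 1270 to 4464 CPM in WT and to 444 to 1137 in the other 7 libraries, macrophage genes to 445 to 1825 and 140 to 519, and tuft cell genes, of a rare chemosensory cell type, to 31.3 to 47.5 and 5.66 to 34.5. All 8 macrophage genes and 5 of 8 fibroblast genes were lower in KO against WT at an unadjusted edgeR p under 0.05 (13.9% of all genes), and 0 of either passed in edgeR. Separate ranges, lower in KO, were found for 0 of 8 macrophage and 5 of 8 fibroblast genes (9.17% of all genes). These counts were not repeated without WT-2404. Lymphoid genes summed to 37.5 to 67.5 CPM in WT and 7.17 to 40.6 in the other libraries, islet genes to 473 to 5661 and 3574 to 9800, mesothelial genes to 26.9 to 42.7 and 23.3 to 65.9, and endothelial genes to 98.9 to 158 and 95.03 to 203. The 9 members other than Tff2 made up 6.70, 56.3 and 14.7 counts per 100 ductal counts in WT-2404, WT-1860 and WT-2067, 15.9, 24.0 and 52.7 in Het-2066, Het-1770 and Het-2042, and 18.0, 0.486, 31.7 and 8.27 in KO-2079, KO-2070, KO-2124 and KO-2126. Relative to this ductal sum, which is mostly Clu, the groups overlapped, and WT-2404 was then the second lowest library. The part of these cell types in the members' differences was not tested.

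**Figure D5:**
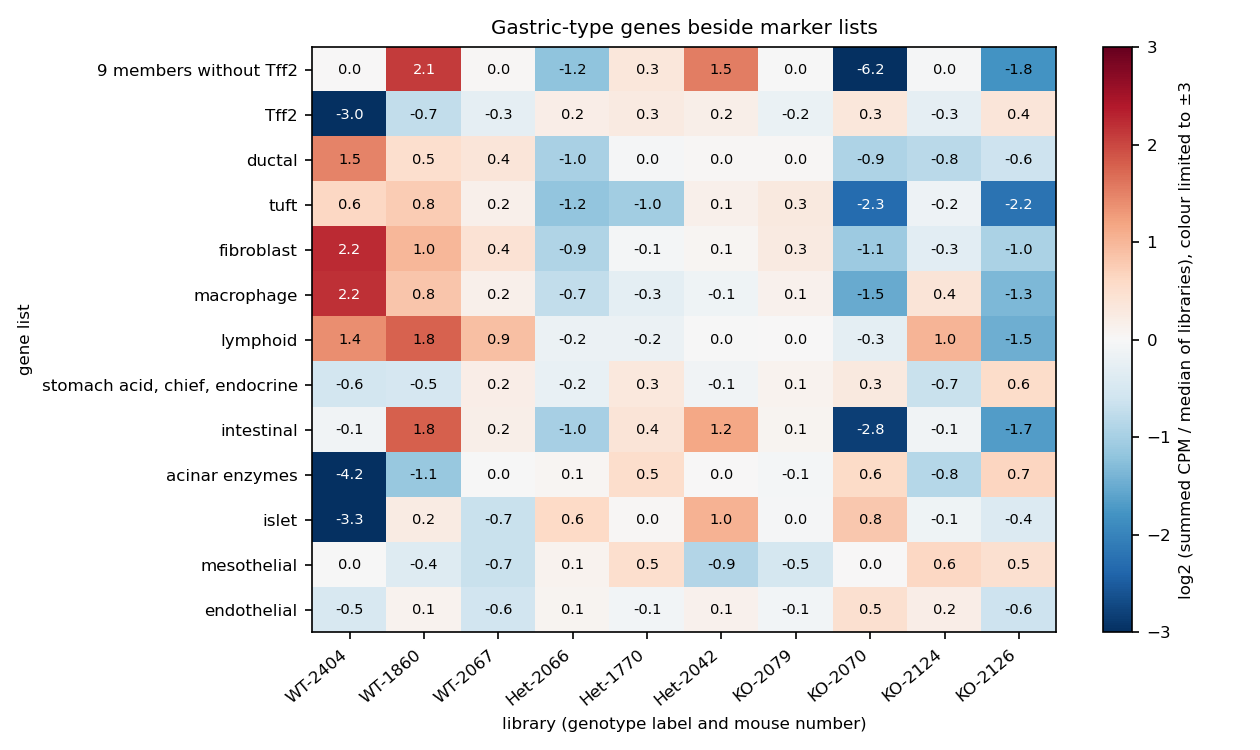
Summed CPM of the 9 members other than Tff2, of Tff2 and of 11 marker lists in each library, as log2 of the ratio to the median over the 10 libraries (colours limited to 3 in either direction, numbers not limited). The top row runs from 2.1 (WT-1860) to -6.2 (KO-2070), while the ductal row stays between -0.97 and 1.5. The Tff2, acinar enzyme and islet rows are each lowest in WT-2404, at -3.0, -4.2 and -3.3.

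The genes most like the members were the 5 with the highest Pearson r to the members' mean log2 CPM over the 10 libraries: Clca1 (0.99), Ano7 (0.99), Sptssb (0.99), Myo1a (0.98) and Ly6d (0.98), with Spearman rho of 0.95, 0.99, 0.92, 0.90 and 0.87. All 5 had 0 counts in KO-2070 and their highest level in WT-1860. Clca1 was at 7.26, 111 and 26.0 CPM in WT-2404, WT-1860 and WT-2067, at 10.3, 42.6 and 70.5 CPM in Het-2066, Het-1770 and Het-2042, and at 25.03, 0, 27.0 and 5.76 CPM in KO-2079, KO-2070, KO-2124 and KO-2126. Without KO-2070 and WT-1860, the libraries farthest from the median, r over the other 8 was 0.92, 0.98, 0.92, 0.87 and 0.82 in the same order of genes. The libraries share the TMM scale, and the genes were picked as the highest of all genes tested.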

How the data were processed

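RNA of pancreas tail pieces from 10 mice was sequenced, and the authors deposited 1 table of raw counts per gene symbol with 1 column per mouse. Per the submitters' processing notes, DRAGEN, STAR and Cufflinks were used with the build mm10; which tool counted, the annotation and the use of strand are not given in the sources used here, so overlapping and antisense genes are uncertain. Columns were matched to samples by genotype and mouse number, with 0 left over. The 2 rows that name no gene, 2.59% to 8.71% (outside genes) and 0.101% to 0.584% (ambiguous) of all counts, stayed out.

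Genes passing filterByExpr (minimum count 10) were tested with edgeR 4.0.16 (TMM, robust quasi-likelihood, two-sided) in 1 fit of all 10 libraries without covariates, adjusted by Benjamini and Hochberg over 13688 genes, threshold 0.05. Floxed against WT set the mean of the Het and KO group estimates of that fit against the WT estimate. Standard errors came from the quasi-F statistic and 95% intervals from its degrees of freedom. DESeq2 1.42.0, library size alone, scaling without enzyme genes, a filter of 1 count, fits of the compared groups alone and leaving out each library were alternatives. The procedure was tested on simulated data. Replicates differed by more than sampling noise (chi-square per degree of freedom 26.5 to 988). Named were all members, 4 fixed and up to 4 genes per direction of the gastric list, and the 5 most-like genes. A part of the genotype that all groups share is not reported here. The labels' protocol counts 1 WT mouse more, not analysed here. Members and lists were chosen with earlier results of these data known.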

Additional observations from a re-analysis of the deposited data

Results flagged for a closer look

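In a group of 4 libraries a value was picked out where its gap to the nearest other exceeded Dixon's 95% limit; 30 such groups were examined, and chance alone picks out about 1.5. Tff2 made up 0.172% of the gene counts of KO-2124 and 0.117% to 0.123% of those of the other 3 KO libraries. In the same library Tff2 had 2.77 counts per 1000 enzyme counts, against 1.51 to 1.66. KO-2124 was also the KO library with the lowest enzyme share of gene counts, 62.3%, and the highest share of reads outside genes, 8.71%; the part of these in the Tff2 values was not tested.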

How the results depend on the processing

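No member passed under DESeq2, scaling without enzyme genes, a filter of 1 count, fits of the compared groups alone, or any left-out library (0 to 0 members in each contrast). By library size alone, which shifted the median of all genes by -1.19 in KO against WT, -1.36 in Het against WT and -1.28 in floxed against WT, 1 member passed in KO against WT (Cldn18, -2.50, edgeR adjusted p = 0.0444) and 2 in floxed against WT (Cldn18, -2.13, and Ctse, -3.21). Gkn3 in KO against Het turned to 0.33 by library size alone and to 0.32 without both WT-2404 and KO-2070, an alternative chosen after seeing the data; the cause was not tested. Leaving out single libraries turned these directions: Gkn2 in KO against WT (-2.77 to 0.014); in Het against WT Muc5ac (-0.61 to 1.33), Tff1 (-0.95 to 0.97), Gkn1 (-1.17 to 1.87), Gkn2 (-1.13 to 2.11), Cldn18 (-1.05 to 0.34) and Anxa10 (-1.44 to 0.089); in KO against Het Muc6 (-0.14 to 1.34) and Gkn3 (-0.69 to 0.67); and in floxed against WT Muc5ac (-1.29 to 0.62), Tff1 (-1.42 to 0.29), Gkn1 (-1.59 to 0.90) and Gkn2 (-1.65 to 1.06). For these genes the highest value came without WT-1860 in each contrast with WT, and without Het-2042 in KO against Het. Over all genes, 0 passed in edgeR with all 10 libraries; DESeq2 called 1009 in KO against WT, 400 in Het against WT and 1753 in floxed against WT, library size alone 2835, 3125 and 7109, and edgeR without WT-2067 1933, 1158 and 2830. In floxed against WT, edgeR called 8 genes with the filter of 1 count, 1094 with Het and KO as 1 group, 50 without KO-2079 and 490 without KO-2124. A prior count of 0.5 moved the KO minus WT difference of the members' mean log2 CPM from -2.30 to -2.54. Of the 5 most-like genes, 1 was among the top 5 by Spearman rho and 3 without WT-2404. No paired analysis was possible because the groups share no mouse number. At 0 counts, 3 counts (0.0501 to 0.395 CPM) limit what could be seen.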

Other observations

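Pgc, the pepsinogen of chief and mucous gland cells, and Gif, intrinsic factor, differed in pattern from the members. Both had their highest CPM in KO-2079: Pgc reached 48.8 CPM, against 1.32 to 11.9 elsewhere, and Gif 2.35 CPM, against 0 to 0.965. For Gif this order depends on the TMM factors, since KO-2079 had 38 counts and WT-2404 had 44. KO-2079 was not the highest library for any of the 10 members. Psca, a surface protein of gastric epithelium, had 248 counts in WT-1860, 143 in Het-2042, 19 in WT-2404 and 0 in KO-2070. These genes were singled out after their values had been seen, and no explanation was tested.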
